A study of Mus musculus with 4 samples.

Results

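The genes described here were the 6 St8sia sialyltransferases (St8sia1 to St8sia6) and the neural cell adhesion molecules Ncam1 and Ncam2. These are 8 of the 24411 genes in a table of estimated counts. They were taken by symbol, and the set was chosen by the CPM of St8sia2 (counts per 1000000), which had been seen to be higher in homozygous than in heterozygous pools. The differences between genotypes of these 8 genes are therefore given as a description and support no test. A single count of those past a threshold stands beside the share of all genes, and nothing is read from it. A filter on low counts kept 7 of the 8, all but St8sia6, among 15359 of all genes.

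The libraries came from the cochlea of 7-day-old mice (postnatal day 7) that were either heterozygous or homozygous for an Otof knockout. Otof encodes otoferlin, which inner hair cells need to release transmitter onto spiral ganglion neurons. The heterozygous animals served as the comparison group, so all 4 libraries carried at least 1 knockout allele and there was no wild-type library. Each library was a pool of both cochleas from 2 to 3 pups, with 2 pools per genotype. The sources used here do not state the allele, the strain or the sex of the pups.

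Polysialic acid is a long chain of sialic acid that is added in the Golgi apparatus, chiefly to NCAM, the product of Ncam1. The enzymes that build these chains are St8sia2, which is known as the main polysialyltransferase of the developing nervous system, and St8sia4, which persists into adult life. The bulky charged chains keep membranes apart and weaken adhesion, and they are known from growing axons, migrating cells and synapses that are still being remodelled. The other St8sia enzymes add single or few sialic acids to gangliosides or glycoproteins.

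The libraries held between 31509350 and 38090724 estimated counts. Counts of Otof were 86 and 83 for the heterozygous and 5 and 9 for the homozygous pools, so their order matched the labels. Xist, made by the inactive X chromosome, was nearly absent from homozygous replicate 1 with 2 counts and had 19085 in homozygous replicate 2. Y-linked Ddx3y was at 0 only in the latter pool, so the homozygous pools differed in sex-linked transcripts. Among 9 markers of central glia, the summed level was 1760 and 1660 CPM for the heterozygous pools but 1460 and 468 CPM for homozygous replicates 1 and 2. Homozygous replicate 2 thus stood apart, and values without it are given for some of the genes below. Of 12 hair cell markers, Atoh1 was at 0 in every library, and Ocm and Pou4f3 were at 0 in at least 1 library. In bulk tissue, a change in the number of cells of a type and a change in RNA per cell cannot be told apart.

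St8sia2 was higher in both homozygous pools than in either heterozygous pool. It lies on chromosome 7 (73939119 to 74013690, minus strand, GRCm38) and encodes the polysialyltransferase that dominates in embryonic and early postnatal brain. Its counts were 196 and 221 for heterozygous replicates 1 and 2, and 633 and 581 for the homozygous replicates. On library sizes scaled by the trimmed mean of M-values, these were 5.51 and 6.95 CPM against 16.4 and 18.1 CPM. The heterozygous mean was 6.23 ± 1.0 CPM and the homozygous mean 17.2 ± 1.2 CPM (SD, n = 2), a ratio of 2.76. The genotypes did not overlap, and the gap between them was wider than the distance between the pools of either genotype.

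The log2 fold change of St8sia2, homozygous over heterozygous, was 1.47 ± 0.17 (SE). It was 1.31 without heterozygous replicate 1, 1.65 without heterozygous replicate 2, 1.53 without homozygous replicate 1 and 1.40 without homozygous replicate 2, the pool with few central glia transcripts. The level was 16.4 CPM in the pool with hardly any Xist and 18.1 CPM in the pool with no Ddx3y. By the size of its log2 fold change St8sia2 stood at place 41 from the top among 15359 genes. In the authors' deposited table of 343 changed genes it had a log2 fold change of 1.48 ± 0.23 (SE), the highest but 3 of the 72 higher genes there. That table belongs to the same study and is no independent evidence, and its name speaks of removed outliers without saying which.

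**Figure D1:**
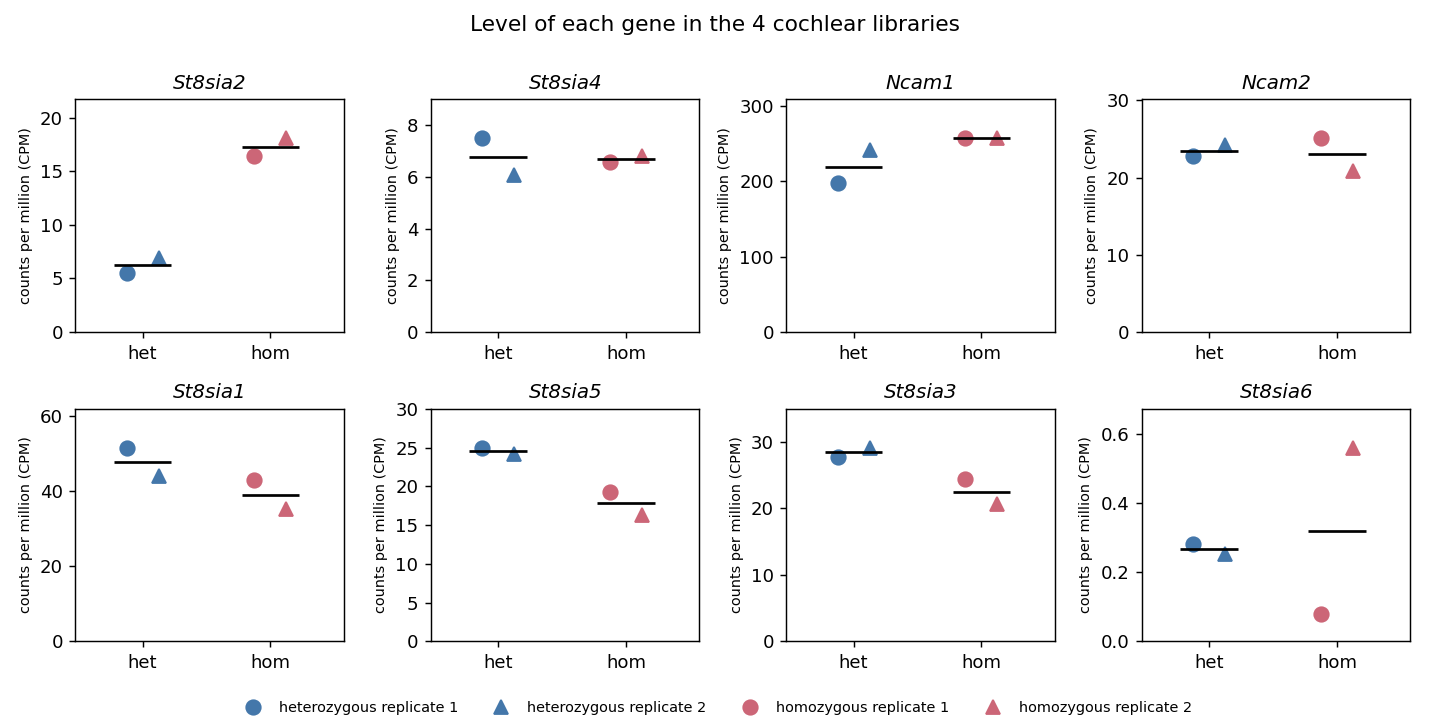
CPM of each of the 8 genes (vertical axes from 0, each with its own range) in the heterozygous (het) and homozygous (hom) pools; each point is 1 library and each bar the mean of 2 pools. St8sia2 goes from 5.51 and 6.95 CPM to 16.4 and 18.1 CPM, while St8sia4 stays between 6.07 and 7.50 CPM.

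St8sia4, the other polysialyltransferase, lies on chromosome 1 (95587682 to 95667571, minus strand). Its counts were 267 and 193 for the heterozygous and 254 and 219 for the homozygous pools. These were 7.50 and 6.07 CPM against 6.57 and 6.82 CPM, so both homozygous pools lay between the heterozygous ones. The log2 fold change was -0.02 ± 0.18 (SE). It was 0.14 without heterozygous replicate 1 and -0.16 without heterozygous replicate 2, so its sign depended on which pool was used. The level of both enzymes added together was 13.0 and 13.0 CPM in the heterozygous pools and 22.9 and 24.9 CPM in the homozygous pools. The means of St8sia4 alone were 6.79 and 6.70 CPM, so it added nothing to that gap.

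The 250 bases before the RefSeq start of each polysialyltransferase gene (RefSeq, GRCm38.p6) are shown because one gene differed between the pools and its closest functional partner did not. The windows are chr7:74013683-74013932 for St8sia2 and chr1:95667595-95667844 for St8sia4, both printed 5′ to 3′ on the minus strand. Capitals mark a GC box (GGGCGG or CCGCCC) or a CCAAT box (CCAAT or ATTGG).
St8sia2: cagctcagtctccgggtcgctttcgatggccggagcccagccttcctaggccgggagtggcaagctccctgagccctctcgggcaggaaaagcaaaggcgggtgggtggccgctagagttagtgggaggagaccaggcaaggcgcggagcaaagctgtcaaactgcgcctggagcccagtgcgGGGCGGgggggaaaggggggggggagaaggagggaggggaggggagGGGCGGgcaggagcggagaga
St8sia4: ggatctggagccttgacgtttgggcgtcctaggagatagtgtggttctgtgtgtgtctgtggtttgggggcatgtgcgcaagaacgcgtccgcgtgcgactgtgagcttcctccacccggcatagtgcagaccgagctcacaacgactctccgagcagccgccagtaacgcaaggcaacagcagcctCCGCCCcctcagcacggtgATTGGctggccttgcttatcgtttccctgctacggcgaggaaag

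The St8sia2 window was 68.8% G or C and held 2 GC boxes and no CCAAT box. The St8sia4 window was 60.4% G or C and held 1 GC box and 1 CCAAT box. Both strands were searched, and the motifs did not overlap each other. Of 32851 RefSeq windows of the same length, 32.7% held a GC box and 33.8% a CCAAT box. Neither of the printed windows held TATAAA, found in 12.4% of all windows, or CACGTG, found in 6.02%. These letters are a description of the windows only.

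The genes next to St8sia2 were looked at as well. Fam174b, the nearest tested gene on the side of lower coordinates and 162.2 kb away, had 14.5 and 14.0 CPM in the heterozygous pools and 18.3 and 17.2 CPM in the homozygous pools. Its log2 fold change was 0.32 ± 0.12 (SE), and its adjusted p was 0.363 in edgeR's quasi-likelihood fit and 0.497 in DESeq2. Slco3a1, an organic anion transporter and the nearest on the other side at 261.7 kb, had a log2 fold change of -0.09 ± 0.19, with adjusted p of 0.893 by edgeR and 0.993 by DESeq2. Neither neighbour of the locus passed a test. Of the 8 genes 0 lay on chromosome 5, which carries Otof.

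Ncam1, whose product carries most polysialic acid in nervous tissue, lies on chromosome 9 (49502136 to 49798925, minus strand). Its counts were 7011 and 7666 for the heterozygous and 9939 and 8241 for the homozygous pools. These were 197 and 241 CPM against 257 and 257 CPM. The homozygous pools were higher than both heterozygous pools, but the heterozygous pools lay farther from each other (44 CPM) than the higher of them lay from the nearest homozygous pool (15.7 CPM for homozygous replicate 2).

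The log2 fold change of Ncam1 was 0.23 ± 0.12 (SE), and it was 0.09 without heterozygous replicate 1 and 0.38 without heterozygous replicate 2. Its size was thus set largely by which heterozygous pool was used. Ncam2, a paralogue known from olfactory axons and not usually polysialylated, lies on chromosome 16 (81200697 to 81626828). It had 22.8 and 24.2 CPM in the heterozygous pools and 25.1 and 20.9 CPM in the homozygous pools. The homozygous values lay on either side of the heterozygous ones, and the log2 fold change was -0.03 ± 0.13 (SE), from -0.18 without homozygous replicate 1 to 0.10 without homozygous replicate 2.

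The ganglioside sialyltransferases had lower values in the homozygous pools. St8sia1, the synthase of the ganglioside GD3, lies on chromosome 6 (142821545 to 142964452, minus strand). It had 51.6 and 44.0 CPM in the heterozygous pools and 42.9 and 35.1 CPM in the homozygous pools. The genotypes did not overlap, yet heterozygous replicate 2 and homozygous replicate 1 lay close together. The log2 fold change was -0.29 ± 0.14 (SE), and it was -0.17 without heterozygous replicate 1, -0.45 without homozygous replicate 1 and -0.15 without homozygous replicate 2.

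St8sia5, which extends gangliosides with further sialic acids, lies on chromosome 18 (77185839 to 77258771). It had 25.0 and 24.1 CPM in the heterozygous pools and 19.3 and 16.3 CPM in the homozygous pools. The pools did not overlap, and the log2 fold change was -0.46 ± 0.13 (SE). Without homozygous replicate 2 it was -0.34.

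St8sia3, an enzyme that adds short sialic acid chains, lies on the same chromosome (64254359 to 64279611). It had 27.7 and 29.1 CPM in the heterozygous pools and 24.3 and 20.6 CPM in the homozygous pools. The genotypes did not overlap here either, and the log2 fold change was -0.34 ± 0.12 (SE), or -0.22 without homozygous replicate 2. An annotated antisense gene, St8sia3os, shares exon sequence with it and had 0 counts in every library. Antisense genes that share exon sequence are also annotated at Ncam1 (Gm11149, with 0 counts) and St8sia1 (Gm7457, with 2 counts in all) and on the other strand at St8sia5 and St8sia6, and the sources used here do not state whether the counting used strand.

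St8sia6, which acts on O-linked glycans, lies on chromosome 2 and was near the limit of detection. Its counts were 10 and 8 for the heterozygous and 3 and 18 for the homozygous pools. The limit that a count of 0 allows is 3 counts, or 0.0776 to 0.0943 CPM in these libraries, which covers counting error only. Homozygous replicate 1 was at that limit, homozygous replicate 2 was the highest of the 4 libraries, and no difference between genotypes was detectable at this depth.

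Of the 7 genes past the filter, 2 were higher (St8sia2, Ncam1) and 3 lower (St8sia1, St8sia3, St8sia5) in both homozygous pools than in both heterozygous pools, while Ncam2 and St8sia4 overlapped. Of all genes tested, 21.6% were higher and 24.5% lower without overlap, 46.1% together, so separation of 2 pools from 2 pools was common. By DESeq2, at an adjusted p under 0.05, 1 of the 7 was called, St8sia2, beside 4.46% of all genes. As St8sia2 was the reason for choosing the set, nothing is read from that count. edgeR's quasi-likelihood test called 0.0% of the 15359 genes, with 2038 genes (13.3%) at an unadjusted p under 0.05 and 685 called by DESeq2. An exact permutation test of 2 pools against 2 could not go below 0.333, and none was run.

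Levels of different genes were compared per length, as TPM (transcripts per 1000000) on the union of each gene's annotated exons. Ncam1 was the most abundant of the 8, at 86.1 and 103 TPM in the heterozygous pools and 117 and 114 TPM in the homozygous pools. St8sia1 followed with 14.5 to 20.9 TPM over the 4 libraries and St8sia5 with 11.5 to 17.4 TPM, and their ranges overlapped. St8sia3 (6.78 to 9.22 TPM) and Ncam2 (7.10 to 8.76 TPM) also overlapped. St8sia4 had 1.12 to 1.41 TPM and St8sia6 0.04 to 0.282 TPM, each apart from its neighbours in the order.

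St8sia2 took another place in this order in each genotype. It had 3.87 and 4.79 TPM in the heterozygous pools, below both St8sia3 and Ncam2, and 12.0 and 12.9 TPM in the homozygous pools, above both. In the homozygous pools it also overlapped St8sia5, which had 14.0 and 11.5 TPM in replicates 1 and 2. Within a library, the TPM of St8sia2 was 2.74 and 4.27 times that of St8sia4 in the heterozygous pools. In the homozygous pools it was 9.30 and 9.90 times that of St8sia4. With the longest transcript as the length these ratios were 1.37 and 2.14, and 4.66 and 4.96, since the annotated exons of St8sia4 together are 20091 bases long and its longest transcript is 10027. On that length St8sia2 stayed below Ncam2 in homozygous replicate 2, at 9.79 against 9.94 TPM, and in homozygous replicate 1, at 9.12 against 12.3 TPM. The order of St8sia2 and Ncam2 in the homozygous pools thus turned with the length used. On the longest transcript Ncam2 (9.94 to 12.3 TPM) also lay above St8sia3 (6.14 to 8.38 TPM) without overlap, and it overlapped St8sia5 (8.70 to 13.2 TPM).

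**Figure D2:**
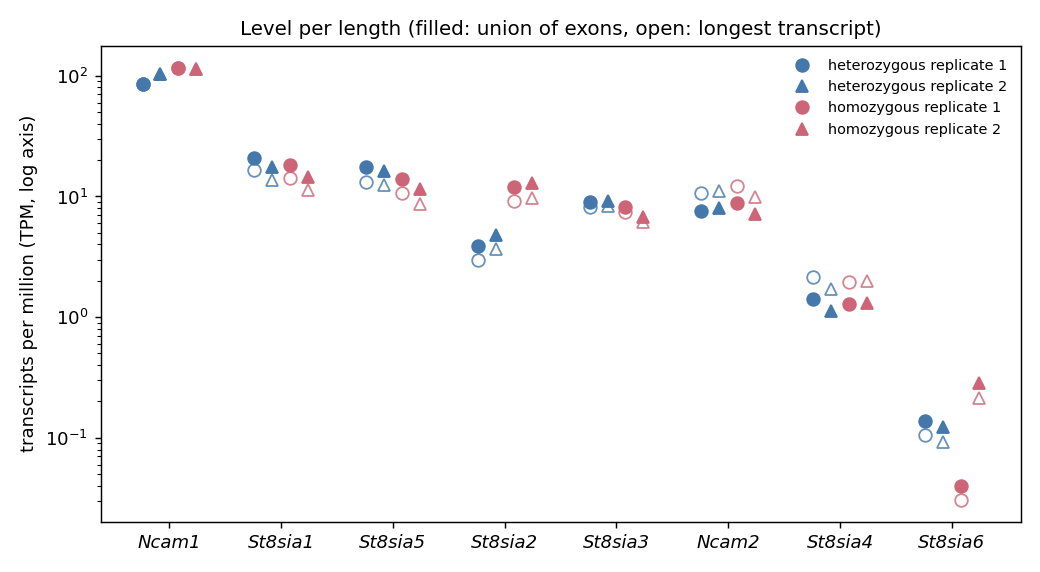
Level per length in TPM (vertical log axis) of the 8 genes, ordered by their mean over the 4 libraries; filled symbols use the union of exons as the length and open symbols the longest transcript. Ncam1 lies near 100 TPM, from 86.1 to 117, and St8sia2 moves from 3.87 and 4.79 TPM in the heterozygous pools to 12.0 and 12.9 TPM in the homozygous pools.

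The genes whose pattern over the 4 libraries was most like that of St8sia2 were found by the root mean square difference of log2 CPM, each gene centred on its own mean, among 13334 other genes. The closest was Necab1, a neuronal calcium-binding protein, at a difference of 0.063. It had 15.8 and 19.9 CPM in the heterozygous pools and 43.6 and 47.0 CPM in the homozygous pools. Also among the closest were Shisa6, an auxiliary protein of AMPA receptors (0.146), Gata3, a transcription factor needed for inner ear neurons (0.203), and Hpcal1, a neuronal calcium sensor (0.209). The log2 fold changes of these 4 genes lay between 1.05 for Hpcal1 and 1.74 for Shisa6. With 4 libraries, this likeness is mainly one of fold change.

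The supply of polysialic acid was examined through genes of the metabolism and transport of sialic acid and CMP-sialic acid, its activated form, including breakdown. Of 8 such genes tested, 0 rose and 0 fell by DESeq2, where 1.05% of all genes rose and 3.41% fell. By edgeR 0 were called and 0 had an unadjusted p under 0.05, where 13.3% of all genes had one. The median log2 fold change of the list was 0.04, beside 0.01 over all genes. Slc35a1, the Golgi transporter of CMP-sialic acid, had 37.3 and 40.9 CPM in the heterozygous pools and 42.5 and 44.6 CPM in the homozygous pools (log2 fold change 0.16 ± 0.09, SE, or 0.09 without heterozygous replicate 1). Npl, which breaks sialic acid down, had a log2 fold change of -0.23 ± 0.13, or -0.13 without heterozygous replicate 2. Gne, the rate-limiting enzyme of sialic acid synthesis, had 0.05 ± 0.07 and Cmas, which activates sialic acid, -0.04 ± 0.07. These last 2 genes fell outside the naming rule and were chosen after their values were seen.

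Among 13 other sialyltransferases tested, 1 fell and 0 rose by DESeq2, where 3.41% of all genes fell and 1.05% rose. The median log2 fold change was 0.03. The gene that fell was St6gal1, which caps N-linked glycans with sialic acid. It had 218 and 210 CPM in the heterozygous pools and 164 and 145 CPM in the homozygous pools. The log2 fold change was -0.47 ± 0.09 (SE), with an adjusted p of 0.00561 by DESeq2 and 0.184 by edgeR. Without homozygous replicate 2 the log2 fold change was -0.37. The DESeq2 call was lost without heterozygous replicate 1 (adjusted p = 0.576), heterozygous replicate 2 (0.480) or homozygous replicate 2 (0.223).

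Of 3 sialidases tested, which remove sialic acid, 0 passed DESeq2 or edgeR. An unadjusted edgeR p under 0.05 was found for 1, beside 13.3% of all genes. All 3 were lower in both homozygous pools, as were 24.5% of all genes, and the median log2 fold change was -0.34. Neu4, an enzyme known to cleave polysialic acid, had 13.3 and 16.2 CPM in the heterozygous pools, and 8.48 and 3.12 CPM in homozygous replicates 1 and 2. Its log2 fold change was -1.34 ± 0.48 (SE), with an adjusted p of 0.0836 by DESeq2 and 0.353 by edgeR. Without homozygous replicate 2 it was -0.79. Without homozygous replicate 1 it was -2.25, and Neu4 then passed DESeq2 (adjusted p = 1.11e-06). Homozygous replicate 2 was the lowest pool for Neu4 and also for the summed central glia markers (468 CPM), and the part of those cells in the difference of Neu4 was not tested. Neu1, the lysosomal sialidase, had a log2 fold change of -0.14 ± 0.08, or -0.09 without heterozygous replicate 1.

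The 7 genes of ganglioside core synthesis, which make the lipids that St8sia1 and St8sia5 act on, included 0 past DESeq2 or edgeR. At an unadjusted edgeR p under 0.05 there were 2, beside 13.3% of all genes. Those 2 were B4galt6, a lactosylceramide synthase (log2 fold change -0.32 ± 0.10, SE), and St3gal5, the synthase of GM3 (-0.22 ± 0.08, or -0.14 without homozygous replicate 2). The median of the list was -0.02.

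Other carriers of polysialic acid are known besides NCAM, and 4 of 5 listed were tested. By DESeq2 1 rose and 0 fell, where 1.05% of all genes rose and 3.41% fell, with a median log2 fold change of 0.15. The gene that rose was Nrp2, neuropilin-2, a receptor of semaphorins and growth factors. It had 192 and 155 CPM in the heterozygous pools and 233 and 249 CPM in the homozygous pools (log2 fold change 0.48 ± 0.13, SE), with an adjusted p of 0.0346 by DESeq2 and 0.261 by edgeR. The DESeq2 call was lost when any of the 4 pools was left out, with adjusted p between 0.0525 and 1.0. Nrp2 is polysialylated in immune cells, where St8sia4 is the enzyme.

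Of 11 signalling partners of NCAM, 0 passed DESeq2 or edgeR. An unadjusted edgeR p under 0.05 was found for 0 of the 11, beside 13.3% of all genes. The median log2 fold change was 0.10. Fyn, a kinase that transmits NCAM signals, had 376 and 466 CPM in the heterozygous pools and 343 and 332 CPM in the homozygous pools (-0.32 ± 0.13, SE). That value was -0.46 without heterozygous replicate 1 and -0.15 without heterozygous replicate 2. Fgfr1, a growth factor receptor that NCAM binds, had 272 and 248 CPM against 286 and 348 CPM (0.28 ± 0.13), and its value was 0.41 without homozygous replicate 1 and 0.14 without homozygous replicate 2.

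Adhesion genes of the L1, contactin and related families went both ways. Of 16 tested, 1 rose and 3 fell by DESeq2, where 1.05% of all genes rose and 3.41% fell. The median log2 fold change was -0.14. Mcam, an adhesion molecule of vessel walls, rose from 205 and 229 CPM to 337 and 321 CPM, with a log2 fold change of 0.60 ± 0.10 (SE). Its adjusted p was 7.54e-06 by DESeq2 and 0.137 by edgeR, and the DESeq2 call was lost without heterozygous replicate 1 (0.178).

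Cadm3, a synaptic and axonal adhesion molecule, fell from 197 and 214 CPM to 121 and 121 CPM. Its log2 fold change was -0.76 ± 0.08 (SE), with an adjusted p of 2.91e-10 by DESeq2 and 0.107 by edgeR, and the DESeq2 call held with any of the 4 pools left out. Cadm2, of the same family (-0.80 ± 0.22), and Nrcam, a neuronal molecule of the L1 family (-0.51 ± 0.12), had DESeq2 adjusted p of 0.0248 and 0.0315, and 0.262 and 0.213 by edgeR. Both calls were lost without either heterozygous pool or without homozygous replicate 2, with the largest adjusted p at 0.660 for Cadm2 and 1.0 for Nrcam. Without homozygous replicate 2 the log2 fold change of Cadm2 was -0.52 and that of Nrcam -0.37. Across all the pathway lists, which share some genes, DESeq2 called 6 of 59 distinct genes, 2 higher and 4 lower, where it called 4.46% of all genes. edgeR called 0 of them, and 14 had an unadjusted p under 0.05, as did 13.3% of all genes.

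**Figure D3:**
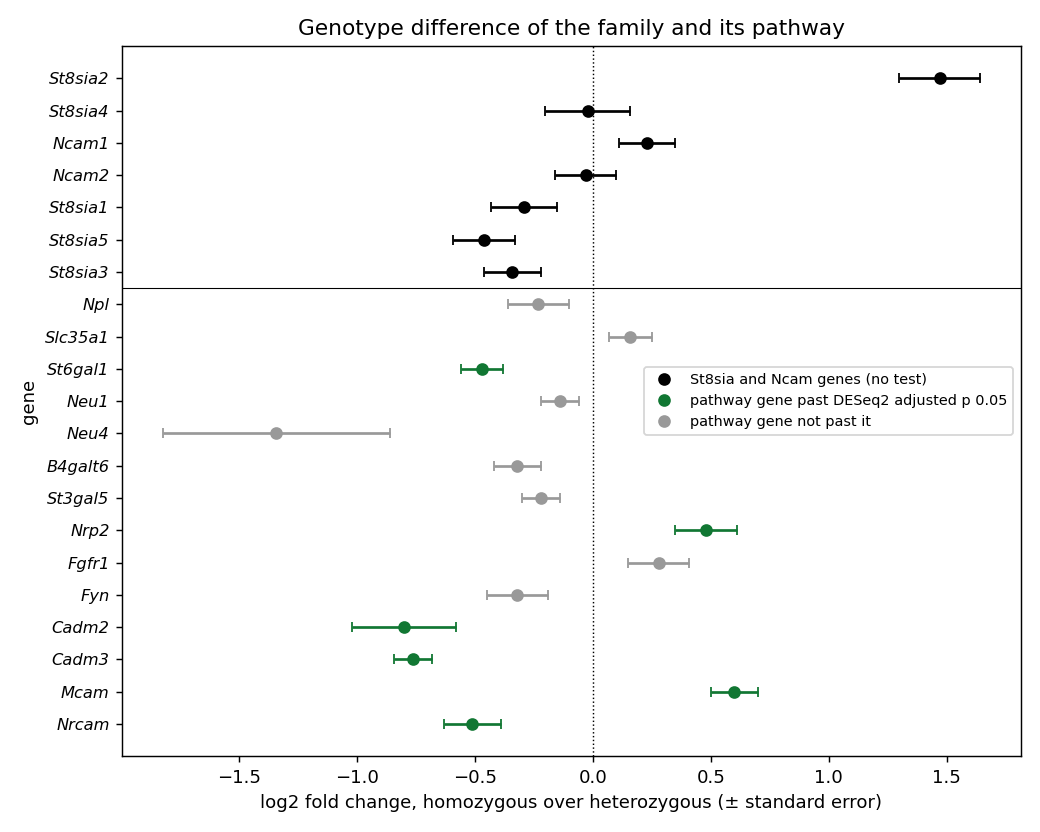
Log2 fold change, homozygous over heterozygous, with its standard error (horizontal axis) for the 7 St8sia and Ncam genes past the filter (black, above the line) and for pathway genes (green where past DESeq2 adjusted p 0.05, grey where not). St8sia2, at 1.47, lies farthest to the right, and Neu4, at -1.34, farthest to the left, with a standard error of 0.48.

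Marker lists of the cell types that the tissue can hold were set beside these values. Of 12 fibroblast markers tested, 6 rose and 0 fell by DESeq2, where 1.05% of all genes rose and 3.41% fell. Their summed level was 7940 to 9030 CPM in the heterozygous pools and 11500 to 12600 CPM in the homozygous pools. Of 12 cell cycle genes, 3 rose and 0 fell, with 298 to 328 CPM against 393 to 409 CPM. Both lists were thus higher in the same pools as St8sia2, by less than St8sia2 on the log2 scale.

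Of 15 neuron markers, 10 fell and 0 rose, where 3.41% of all genes fell and 1.05% rose. Their summed level was 7990 to 8320 CPM in the heterozygous pools and 5290 to 5700 CPM in the homozygous pools. Of 13 markers of myelinating Schwann cells, 10 fell and 0 rose, with 45100 to 46700 CPM against 23300 to 28000 CPM. Of 9 central glia markers, 2 fell and 0 rose by DESeq2. These 3 lists were lower in the same pools as St8sia1, St8sia3 and St8sia5.

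Of 12 markers of immature neurons, in which St8sia2 is known to be expressed, 0 rose and 2 fell by DESeq2. Over all genes 1.05% rose and 3.41% fell. The 2 were Nes and Tubb3, and Tubb3 is also on the neuron list. The markers went both ways. In CPM, 2 were higher and 2 lower without overlap of the genotypes, beside 21.6% and 24.5% of all genes. The log2 fold change was above 0 for 7 of the 12, with a median of 0.05. The summed level was 2500 and 3100 CPM in the heterozygous pools and 2450 and 2890 CPM in the homozygous pools, so the sums of the genotypes overlapped. Of 8 markers of immature and non-myelinating Schwann cells, which are known to express Ncam1, 0 passed DESeq2 or edgeR. An unadjusted edgeR p under 0.05 was found for 2, beside 13.3% of all genes. The summed level of the 8 was 540 and 622 CPM in the heterozygous and 656 and 663 CPM in the homozygous pools. That was the same order of genotypes as for Ncam1. None of the markers in these 7 lists was at 0 in any library.

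Hair cell markers, 12 listed and 6 tested, summed to 227 to 237 CPM in the heterozygous and 195 to 209 CPM in the homozygous pools. Most of that sum was Myo6, with 157 and 158 CPM in the heterozygous and 136 and 107 CPM in the homozygous pools. The markers went both ways. Of the 6 tested, 2 were higher (Espn, Slc17a8) and 3 lower (Myo6, Otof, Pcdh15) without overlap, beside 21.6% and 24.5% of all genes. By DESeq2 1 of them rose and 2 fell, where 1.05% of all genes rose and 3.41% fell. Of the 2 that fell, 1 was the knocked-out gene Otof itself. Skeletal muscle markers, 14 listed and 8 tested, summed to 15.8 to 30.4 CPM in the heterozygous and 8.38 to 11.2 CPM in the homozygous pools. At 0 in at least 1 library were 4 (Ckm, Myh3, Myod1, Myog). By DESeq2 1 fell, Ryr1, from 9.25 and 8.58 CPM to 2.77 and 2.31 CPM. Myh8 had 9.13 CPM in heterozygous replicate 1 and 0.157 to 0.362 CPM in the other pools. The gap between the sums rested largely on these 2 genes. Of the 8 tested, 1 was higher (Chrna1) and 1 lower (Ryr1) without overlap of the genotypes. Macrophage markers, 8 tested, summed to 181 to 249 CPM and 200 to 242 CPM, and marrow and lymphoid markers, 2 of 13 tested, to 3.62 to 5.93 CPM and 4.42 to 6.64 CPM. In these last 2 lists 0 genes passed DESeq2 or edgeR or had an unadjusted edgeR p under 0.05, and the genotypes overlapped. The part of any of these lists in the values of the St8sia and Ncam genes was not tested.

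**Figure D4:**
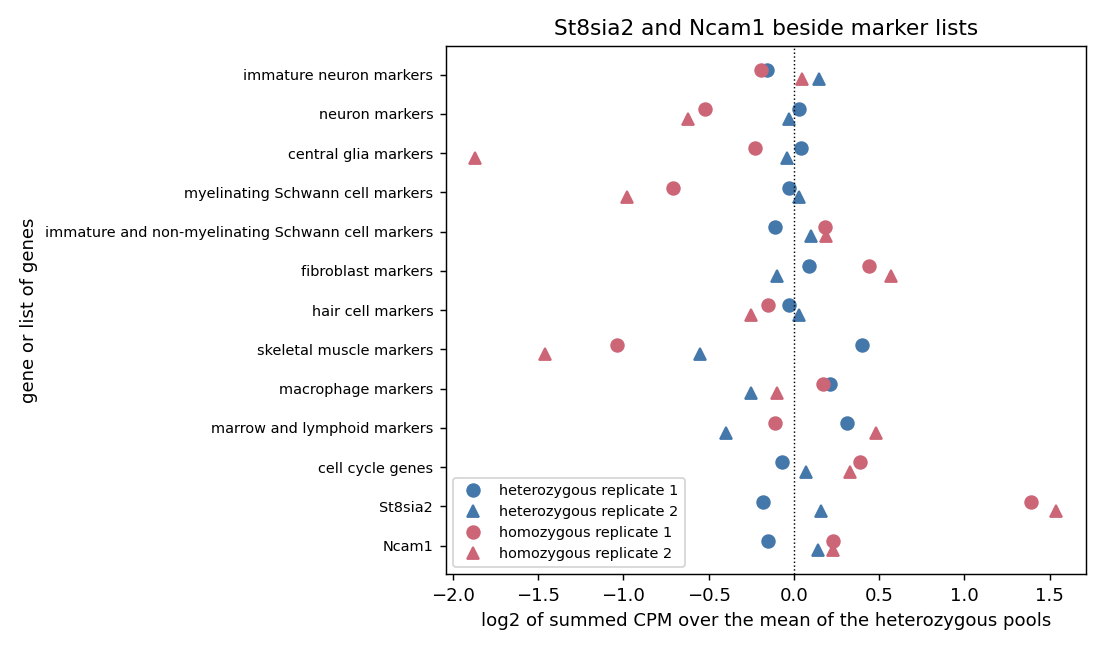
Log2 of the summed CPM of each marker list, and of St8sia2 and Ncam1, over the mean of the 2 heterozygous pools (horizontal axis), with 1 point per library. St8sia2 lies at 1.39 and 1.54 in the homozygous pools, fibroblast markers at 0.44 and 0.57, and central glia markers at -0.23 in homozygous replicate 1 and -1.87 in homozygous replicate 2.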

How the data were processed

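The authors deposited estimated counts for each gene. Per the submitters' processing notes these came from Salmon and the mm10 genome, and per the labels the nf-core pipeline was used; the sources used here state neither versions nor the annotation. The authors' second table, per the file headers, gives DESeq2 log2 fold changes with their standard errors, a Wald score, p-values and the mean normalised signal. Per the labels' protocols, RNA was selected with poly-T beads.

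The counts were rounded. The fit was edgeR 4.0.16 (R 4.3.3; quasi-likelihood F test with TMM scaling, that is the trimmed mean of M-values, and filterByExpr, Benjamini-Hochberg adjustment over 15359 genes) with genotype as the only term. DESeq2 1.42.0 (Wald test) was run beside it on the same genes, and "rose" and "fell" refer to its adjusted p under 0.05. Both were checked on simulated counts with planted changes, whose spread followed the fitted trend only. That check bears on the code and not on the calls in these pools. Standard errors come from the F statistic. CPM use scaled library sizes, and log2 CPM a prior count of 0.5. Lengths and positions come from GENCODE M21 (GRCm38), which gave a length for 95.7% of genes. The authors' annotation may differ, so TPM are approximate.

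The genes and lists were chosen with earlier results of these data known. Named beside the 8 genes were list members past DESeq2, or the 2 of smallest edgeR p where none passed, and the 5 genes most like St8sia2 (at least 1 CPM on average, no predicted gene models), of which 1 is not reported here. The labels do not say that pools came from separate litters, so p-values measure only the spread between these pools. Replicates did not look like repeats of 1 library, as chi-square per degree of freedom was 28.7 between the heterozygous and 47.3 between the homozygous pools. Settings varied were size factors, filters, the tool, a replicate block, the gene length, and leaving out each pool. With a pool left out, the remaining lone pool is taken to vary as the other genotype does. DESeq2 with a pool left out or with the block was added after seeing the data.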

Additional observations from a re-analysis of the deposited data

How the results depend on the processing

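With 2 pools per genotype, fold changes of single genes depend on each pool. The log2 fold change of St8sia2 lay between 1.31 and 1.65 over 15 other settings. Leaving out a pool moves this value by part of the distance between replicates. The range therefore restates that distance, and it is a description only, as St8sia2 was the reason for choosing the set. Over the same settings Ncam1 lay between 0.09 and 0.38, St8sia1 between -0.45 and -0.15, St8sia3 between -0.47 and -0.22, and St8sia5 between -0.60 and -0.34, each on 1 side of 0, while Ncam2 (-0.18 to 0.10) and St8sia4 (-0.17 to 0.15) took both signs. edgeR called 0 genes in the fit reported here and 0 under both other size factors and both other filters, but 685 were called by DESeq2 and 495 by edgeR with a replicate block. Leaving out 1 pool gave 0 to 60 edgeR calls, the 60 without homozygous replicate 1. By DESeq2, leaving out 1 pool gave 174 to 681 calls (217 without heterozygous replicate 1, 174 without heterozygous replicate 2 and 314 without homozygous replicate 2). Of the pathway genes, edgeR called 0, DESeq2 6 and edgeR with the block 4. Without 1 pool edgeR called 0 to 1 of them and DESeq2 1 to 9 (1 without heterozygous replicate 1 and 2 without heterozygous replicate 2). DESeq2 with the block called 610 genes in all and 8 of the pathway genes, among them Neu4 (adjusted p = 0.00495). The cause of these differences in counts was not tested. The replicate numbers are not said to pair the pools: same-numbered pools deviated together with r = 0.287 over genes, but with 2 pairs this does not establish a pairing. The mean TPM ratio of St8sia2 to St8sia4 was 1.76 in heterozygous and 4.81 in homozygous pools with the longest transcript as the length, by the construction of that length. Depth limits St8sia6, with at most 18 counts in a library. Other size factors shifted all genes by a median log2 of at most 0.024.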
